A study of Mus musculus with 16 samples.

Results

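Il10, Ctla4, Foxp3, Il2ra, Ikzf2, Tgfb1, Icos, Lag3 and Tnfrsf18, genes of regulatory T cells and of immune checkpoints, were followed in the lungs of allergen-challenged mice that had or had not been exposed to second-hand smoke (SHS) before birth. They were measured by 15 probe sets, groups of short probes that report 1 gene on the array, out of 45037 tested. A probe set was taken as a member where the array's annotation gave it exactly 1 gene symbol and that symbol was one of these 9 genes or a synonym. Icos and Ikzf2 had 3 probe sets each, Il2ra and Tgfb1 had 2 each, and Il10, Ctla4, Lag3, Tnfrsf18 and Foxp3 had 1 each. Probe sets of 1 gene read the same transcripts and are not replicates of each other.

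RNA came from whole left lungs of 16 Balb/c mice aged 23 weeks, 1 lung on each Affymetrix mouse 430 2.0 array. There were 4 SHS females, 4 air females, 4 SHS males and 4 air males. SHS mice were exposed in utero to sidestream smoke with 10 mg/m3 of suspended particles, and air mice to filtered air, in either case 5 h daily on all 7 days of a week. Every mouse of every group was later sensitized with ovalbumin (OVA), a model allergen from egg, by injections at 19 and 21 weeks and challenged with OVA aerosol in weeks 22 and 23. The air lungs are therefore allergen-challenged lungs too, and the comparisons say nothing of SHS without OVA. The labels name neither mothers nor litters. P-values therefore measure the spread between lungs, some of which may be from siblings.

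Regulatory T cells are the T cells that hold immune responses in check. Their lineage is set by the transcription factor Foxp3, and they need interleukin 2, which they bind through a high-affinity receptor whose alpha chain is Il2ra. They act through surface checkpoints such as Ctla4, which competes for the costimulatory ligands that activated T cells use, and through secreted inhibitors such as interleukin 10 and TGF-beta. None of these genes except Foxp3 is close to specific for them. Activated conventional T cells express Ctla4, Icos, Il2ra, Lag3 and Tnfrsf18, Il10 is also made by macrophages, B cells and helper T cells, and Tgfb1 is made by most cells of the lung. In allergic airways, regulatory T cells and interleukin 10 are known as brakes on inflammation.

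Promoter sequences show where these genes start, and those of Ctla4 and Il2ra, whose signal was called higher after SHS, are printed beside that of Foxp3, whose signal was not. They come from RefSeq on GRCm38.p6, run from 250 bases before to 50 bases after the gene's start, and are all on the + strand. RefSeq promoters were read for 5 of the 9 genes, and Foxp3 had 2, of which the one at the gene's first base is printed. Searched on both strands, with each motif named by its binding factor or element, were an NFAT core (GGAAA), a STAT site (TTCNNNGAA), an AP-1 site (TGANTCA), a forkhead core (TGTTTA) and a TATA box (TATAAA). Matches are in capitals, and none of those printed overlaps another.
Ctla4 (chr1:60908775-60909074): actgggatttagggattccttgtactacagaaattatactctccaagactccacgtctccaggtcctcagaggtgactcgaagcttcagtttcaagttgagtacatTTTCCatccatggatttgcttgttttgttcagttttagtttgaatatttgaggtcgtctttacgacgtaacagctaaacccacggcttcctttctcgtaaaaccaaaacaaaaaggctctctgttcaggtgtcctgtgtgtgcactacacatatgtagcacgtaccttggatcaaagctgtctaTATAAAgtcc
Il2ra (chr2:11642542-11642841): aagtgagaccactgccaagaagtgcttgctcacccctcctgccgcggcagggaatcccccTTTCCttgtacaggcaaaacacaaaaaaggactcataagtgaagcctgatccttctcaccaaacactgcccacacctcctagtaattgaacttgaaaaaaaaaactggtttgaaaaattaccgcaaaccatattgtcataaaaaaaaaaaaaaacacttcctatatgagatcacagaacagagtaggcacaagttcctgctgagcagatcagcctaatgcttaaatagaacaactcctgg
Foxp3 (chrX:7579426-7579725): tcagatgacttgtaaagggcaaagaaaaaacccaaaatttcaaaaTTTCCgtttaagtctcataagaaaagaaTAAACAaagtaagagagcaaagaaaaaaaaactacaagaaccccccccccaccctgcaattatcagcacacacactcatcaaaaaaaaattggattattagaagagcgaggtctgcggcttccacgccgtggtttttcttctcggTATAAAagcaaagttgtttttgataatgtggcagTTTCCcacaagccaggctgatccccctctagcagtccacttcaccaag
Counting the first base of the gene as 1 and the base before it as -1, Ctla4 had an NFAT core starting at -144 and a TATA box at 41. Il2ra had an NFAT core at -190. Foxp3 had an NFAT core at -205, another at 3, a forkhead core at -177 and a TATA box at -32. The other Foxp3 promoter (chrX:7580233-7580532) had an NFAT core at -140 and an overlapping STAT site at -139, counted from its own start. Of 32851 mouse promoters of the same length, 61.3% held the NFAT core, 8.3% the STAT site, 7.81% the AP-1 site, 13.4% the forkhead core and 13.6% the TATA box. The NFAT core, the only motif of the 5 present in all 3 printed promoters, was thus present in most promoters of the genome. Promoters of Tnfrsf18, which was not called, and Tgfb1, called in males on 1 probe set, were read but not printed. Tnfrsf18 had 2 NFAT cores and a STAT site, and Tgfb1 had none of the 5 motifs. A match describes letters and is no evidence of binding.

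Values are log2 intensities, so a difference of 1 is a doubling of signal, and each probe set has its own brightness, so levels were compared between lungs and never between probe sets. SHS was set against air within females and within males. Arrays of 1 sex correlated with each other at 0.990 to 0.998 over all probe sets and with the other sex at 0.959 to 0.974, and levels of the sexes were not compared. The lung genes Sftpc, a surfactant gene, and Scgb1a1, a club cell gene, were near the top of the range on all 16 arrays, at 14.98 to 15.16 and 14.91 to 15.22. SHS female replicate 4 stood apart from its group: its mean correlation was 0.9924 with the other SHS females and 0.9951 with the air females. It was the lowest SHS female for Il10, Ctla4, Icos, Lag3 and Tnfrsf18, and calls that change without it are given both ways.

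After SHS, Il10 and Ctla4 were higher in both sexes, Il2ra and a Tgfb1 probe set were called in males, and Icos and Lag3 were called when the sexes were averaged. Foxp3 and Ikzf2, the genes of regulatory T cell identity, were not called in any comparison. Of the 15 probe sets, 2 were called higher in females, where 2.36% of all probe sets were, and 5, of 4 genes, in males, where 3.07% were. These genes and the lists below were chosen with earlier results of these data known, so counts set beside such shares carry no test. In the SHS effect averaged over the sexes, which uses the same arrays again, 6 were called higher against 6.65% of all probe sets. A call is an adjusted p under 0.05 in limma, with Benjamini-Hochberg adjustment over all 45037 probe sets. None of the 15 was called lower in limma, against 0.517% of all probe sets in females, 2.11% in males and 3.67% in the average. At an unadjusted p under 0.05, 7 were higher and 0 lower in females, where 9.88% and 6.16% of all probe sets were, and 9 were higher and 2 lower in males, where 10.3% and 9.86% were. The median difference of the 15 probe sets was 0.20 in females, 0.30 in males and 0.21 in the average, beside -0.01, -0.00 and -0.01 over all probe sets. The plot of differences with their intervals shows the 15 probe sets side by side.

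**Figure D1:**
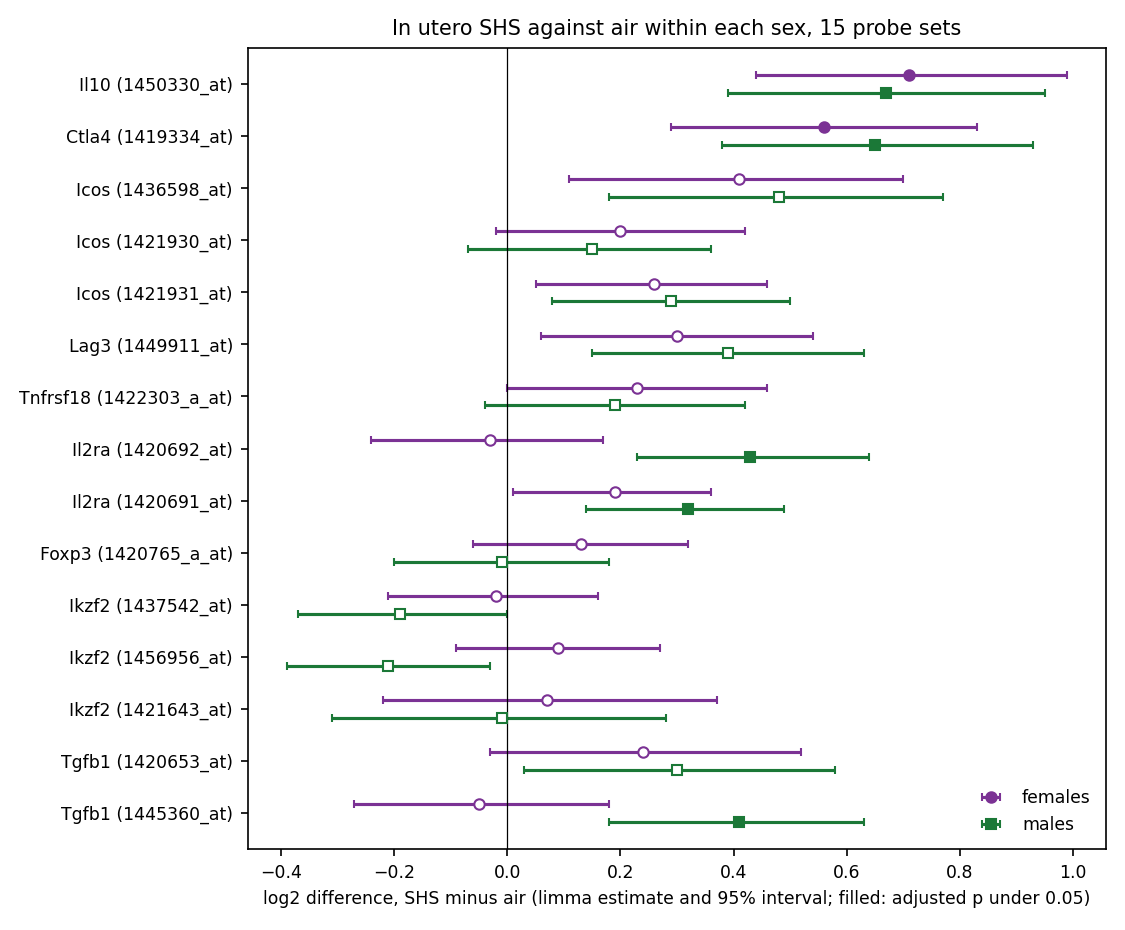
Log2 difference, SHS minus air, of each of the 15 probe sets in females (circles) and males (squares), with limma 95% intervals, n = 4 lungs per group; filled symbols passed an adjusted p of 0.05. Il10 (0.71 and 0.67) and Ctla4 (0.56 and 0.65) lie furthest right in both sexes, Foxp3 lies near 0, and the 3 Ikzf2 probe sets lie between -0.21 and 0.09.

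Il10 encodes interleukin 10, a secreted cytokine that restrains macrophages, dendritic cells and T cells (chromosome 1, 131019845 to 131024970, GRCm38.p6). Its signal was 5.29, 5.01, 5.22 and 4.78 in SHS females, against 4.21, 4.54, 4.31 and 4.38 in air females. In males it was 5.09, 4.88, 5.23 and 4.64 after SHS, against 4.53, 4.15, 4.15 and 4.33 after air. All 4 SHS lungs lay above all 4 air lungs in each sex, with replicate 4 the lowest SHS lung of both. Il10 rose 1.64-fold in females, a log2 difference of 0.71 ± 0.13 (SE, n = 4 and 4, limma adjusted p = 0.00604), and 1.59-fold in males, 0.67 ± 0.13 (adjusted p = 0.00674). The call held in both sexes with each array left out in turn, with a highest adjusted p of 0.0287 in females and 0.0322 in males. Il10 was nonetheless dim, at the 16.4th percentile of mean signal. The deposited table gives no detection calls, so whether it exceeded background was not tested.

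Ctla4 encodes the checkpoint receptor that binds Cd80 and Cd86 in place of the activating receptor Cd28 (chromosome 1, 60909025 to 60915832). SHS females had 6.97, 7.16, 7.12 and 6.70, against 6.64, 6.43, 6.21 and 6.44 in air females. SHS males had 7.02, 7.14, 7.51 and 7.03, against 6.70, 6.63, 6.26 and 6.49 in air males. The groups did not overlap in either sex, although SHS female replicate 4 and air female replicate 1 were close. Ctla4 rose by 0.56 ± 0.13 in females (SE, limma adjusted p = 0.0243) and by 0.65 ± 0.13 in males (adjusted p = 0.00665), and by 0.61 in the average (adjusted p = 0.000326). In males and in the average it was called under every alternative run. In females it was called in 10 of 16 fits that leave out an array and lost without SHS female replicate 1, 2 or 3 or air female replicate 2, 3 or 4 (highest adjusted p = 0.094, without air female replicate 3). It was also lost when the 8 female arrays were fitted alone (adjusted p = 0.052).

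**Figure D2:**
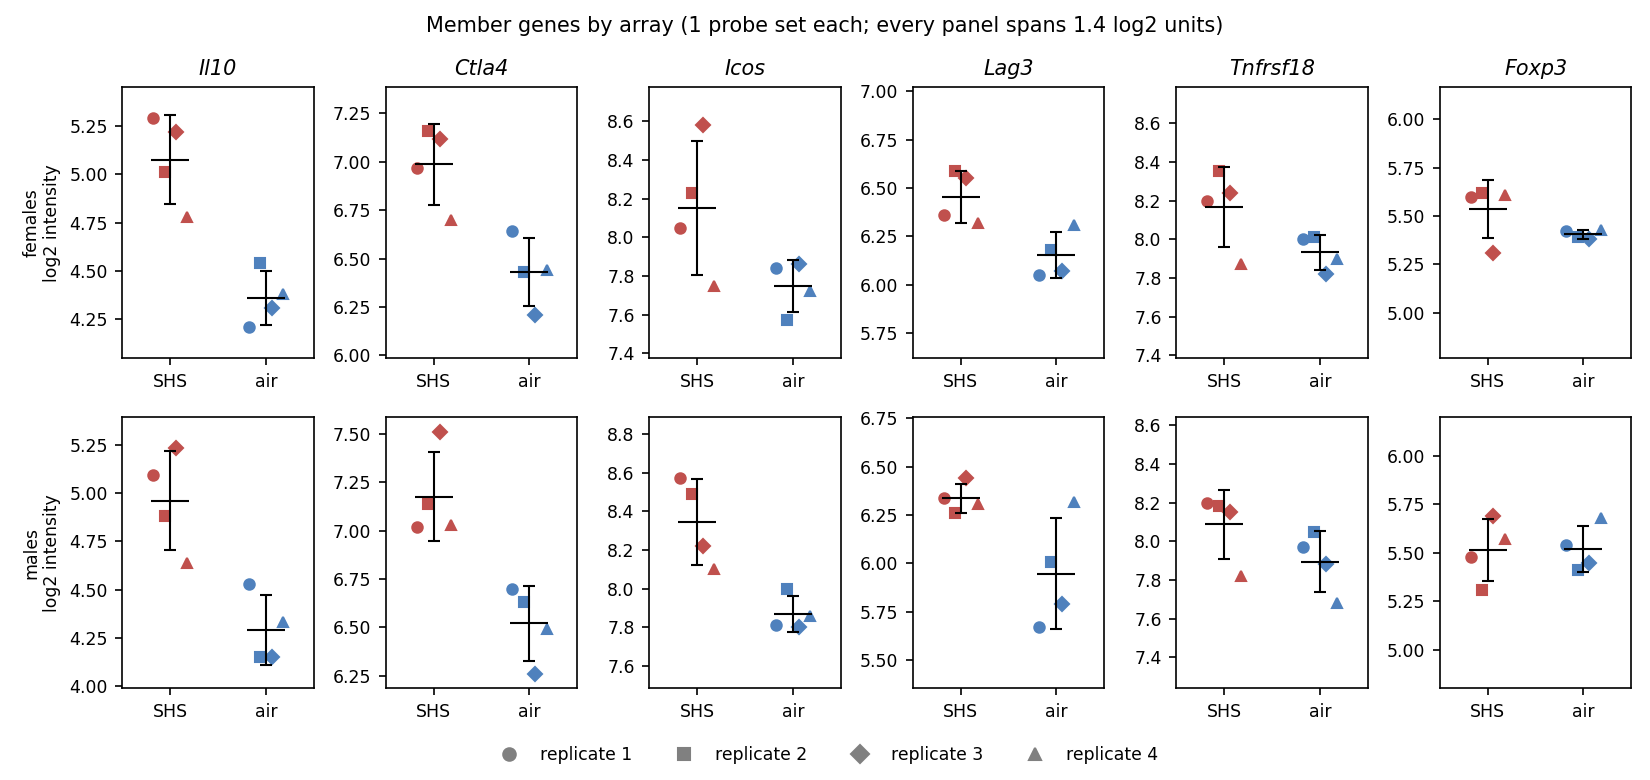
Log2 intensity on each array of Il10, Ctla4, the brightest Icos probe set, Lag3, Tnfrsf18 and Foxp3, females above and males below, SHS (red) left of air (blue); symbols are replicate numbers, and bars are mean and SD of 4 lungs. SHS and air lungs are apart for Il10 and Ctla4 in both sexes and overlap for Tnfrsf18 and Foxp3.

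Icos, an inducible costimulator of activated T cells related to Cd28, is the next of these genes along chromosome 1 (60960773 to 61000322), 44940 bases after the end of Ctla4. Its brightest probe set, 1436598_at, read 8.05, 8.23, 8.58 and 7.75 in SHS females, against 7.84, 7.57, 7.86 and 7.72 in air females. It read 8.57, 8.49, 8.22 and 8.10 in SHS males, against 7.81, 8.00, 7.80 and 7.86 in air males. SHS female replicate 4 fell among the air females, while all SHS males were above all air males. The differences of 0.41 ± 0.14 in females (SE, limma adjusted p = 0.135) and 0.48 ± 0.14 in males (adjusted p = 0.055) were not called, and their average of 0.44 ± 0.10 was (adjusted p = 0.00723). The probe set 1421931_at gave an average of 0.27 (adjusted p = 0.0166) and 1421930_at one of 0.17, which was not called (adjusted p = 0.153). Both averages that were called remained so whichever array was left out. Without SHS female replicate 4, all 3 Icos probe sets were called in females, at 0.54, 0.32 and 0.34 (adjusted p = 0.0132, 0.0252 and 0.0344), and 1421930_at also in the average (adjusted p = 0.00987). In males 1436598_at was called without SHS female replicate 3 or 4 or SHS male replicate 4 (adjusted p = 0.0234, 0.0202 and 0.037), and 1421931_at without SHS female replicate 2 (adjusted p = 0.0467).

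Lag3, an inhibitory receptor related to Cd4 that binds MHC class II (chromosome 6, 124904359 to 124912434), read 6.36, 6.59, 6.55 and 6.32 in SHS females, against 6.05, 6.18, 6.07 and 6.31 in air females. SHS males read 6.34, 6.26, 6.44 and 6.31, against 5.67, 6.01, 5.79 and 6.32 in air males. The female groups nearly touched, and in males the air replicate 4 reached into the SHS range. Lag3 differed by 0.30 ± 0.11 in females (SE, limma adjusted p = 0.177) and 0.39 ± 0.11 in males (adjusted p = 0.0527), and by 0.35 ± 0.08 in the average, which was called (adjusted p = 0.00919) with any array left out. In males Lag3 was called without air male replicate 4 or SHS female replicate 2 or 4 (adjusted p = 0.00721, 0.0492 and 0.0447).

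Tnfrsf18 encodes GITR, a costimulatory receptor that is high on regulatory and activated T cells (chromosome 4, 156026322 to 156028894). It had 8.20, 8.35, 8.24 and 7.87 in SHS females, against 8.00, 8.01, 7.82 and 7.90 in air females. It had 8.20, 8.18, 8.15 and 7.82 in SHS males, against 7.97, 8.05, 7.88 and 7.68 in air males. In each sex the SHS replicates 1, 2 and 3 were above all air lungs and replicate 4 was not. The differences of 0.23 in females, 0.19 in males and 0.21 in the average were not called in limma (adjusted p = 0.299, 0.347 and 0.0908). Without SHS female replicate 4 the average was 0.26 and called (adjusted p = 0.0157), as it was without SHS male replicate 4 (adjusted p = 0.0303).

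Il2ra, the CD25 chain that makes the interleukin 2 receptor high-affinity (chromosome 2, 11642792 to 11693194), gave different pictures in the sexes on 1 of its probe sets. Probe set 1420692_at read 5.74, 5.60, 6.11 and 5.68 in SHS females, against 5.67, 5.85, 5.86 and 5.88 in air females, which overlap. In SHS males it read 6.19, 6.01, 6.08 and 6.12, against 5.65, 5.55, 5.83 and 5.63 in air males, which do not. It rose by 0.43 ± 0.10 in males (SE, limma adjusted p = 0.0151) and differed by -0.03 ± 0.10 in females (adjusted p = 0.914). The call in males was lost without SHS male replicate 1 (adjusted p = 0.0534). The average of 0.20 was not called (adjusted p = 0.0746), but was without SHS female replicate 2 or 4 (adjusted p = 0.0465 and 0.0485). Probe set 1420691_at read 5.67, 5.51, 5.56 and 5.44 in SHS males, against 5.30, 5.32, 5.18 and 5.12 in air males, with no overlap. It rose by 0.32 ± 0.08 in males (adjusted p = 0.0352) and by 0.25 in the average (adjusted p = 0.0103), and differed by 0.19 in females (adjusted p = 0.276). Its call in males was lost without SHS male replicate 1, 2 or 3 or air male replicate 1, 3 or 4 (highest adjusted p = 0.113, without SHS male replicate 1). Both Il2ra probe sets were dim, at the 31.7th and 27.6th percentiles of mean signal.

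Foxp3, the transcription factor that defines the regulatory T cell lineage (chromosome X, 7579676 to 7595243), read 5.60, 5.62, 5.31 and 5.61 in SHS females, against 5.42, 5.39, 5.38 and 5.43 in air females. It read 5.48, 5.31, 5.69 and 5.57 in SHS males, against 5.54, 5.41, 5.45 and 5.68 in air males. In females 3 SHS lungs lay above all air lungs and 1 below them, and in males the groups were mixed. The difference was 0.13 in females, with a 95% interval of -0.06 to 0.32 (limma adjusted p = 0.527), and -0.01 in males, with an interval of -0.20 to 0.18 (adjusted p = 0.973). As differences of signal, the intervals leave out the estimates for Il10 (0.71 and 0.67) and Ctla4 (0.56 and 0.65) in the same lungs. In females, however, the interval of Ctla4 starts at 0.29 and overlaps that of Foxp3. Foxp3 was dim, at the 26.8th percentile of mean signal, and whether it exceeded background was not tested.

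Ikzf2 encodes Helios, a zinc-finger factor of many regulatory T cells (chromosome 1, 69531207 to 69687351). Its brightest probe set, 1437542_at, read 9.04, 9.01, 9.19 and 8.67 in SHS females, against 8.99, 8.95, 9.10 and 8.96 in air females. SHS males read 9.29, 9.22, 9.08 and 9.11, against 9.34, 9.36, 9.38 and 9.38 in air males. All SHS males lay below all air males, the only such case among the 15 probe sets, and the females overlapped. The share of all probe sets with SHS males below air males was not counted, so this is a description only. The difference was -0.19 in males (limma adjusted p = 0.24) and -0.02 in females (adjusted p = 0.94), neither of them called. The probe set 1456956_at gave -0.21 in males (adjusted p = 0.177) and 0.09 in females (adjusted p = 0.674), and 1421643_at gave -0.01 and 0.07 (adjusted p = 0.974 and 0.864).

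Tgfb1 encodes TGF-beta 1, a secreted cytokine made in latent form that can turn naive T cells into regulatory ones (chromosome 7, 25687002 to 25705077). Its probe set 1420653_at read 10.33, 10.38, 9.87 and 9.86 in SHS females, against 9.75, 10.06, 9.72 and 9.92 in air females. It read 8.01, 7.84, 7.78 and 7.95 in SHS males, against 7.89, 7.37, 7.58 and 7.53 in air males. The groups overlapped in both sexes, and the differences of 0.24 and 0.30 were not called in limma (adjusted p = 0.378 and 0.191). The probe set 1445360_at read 7.59, 7.44, 7.54 and 7.44 in SHS males, all above the 7.06, 7.00, 6.96 and 7.36 of air males. It rose by 0.41 ± 0.11 in males (SE, adjusted p = 0.0369) and differed by -0.05 in females (adjusted p = 0.893). That call was lost without any 1 of the SHS males or of air male replicates 1, 2 and 3 (highest adjusted p = 0.113, without air male replicate 3), and with the replicate number as a block (adjusted p = 0.0631). The average was not called for either probe set (adjusted p = 0.0652 and 0.155), but that of 1420653_at was without air male replicate 1 or SHS female replicate 3 or 4 (adjusted p = 0.0298, 0.0396 and 0.0238).

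Over the 15 probe sets, all 4 SHS lungs lay above all 4 air lungs for 3 in females (Il10, Ctla4 and Lag3), where 5.61% of all probe sets did. In males they did for 7 (Il10, Ctla4, 2 of Icos, both of Il2ra and 1 of Tgfb1), where 7.87% did. Whether the SHS effect differed between the sexes was tested directly, and none of the 45037 probe sets was called (lowest adjusted p = 0.141 in limma). At an unadjusted p under 0.05, which 8.24% of all probe sets reached, 3 of the 15 differed. Those 3 were Il2ra 1420692_at (female effect minus male effect -0.47, adjusted p = 0.434), Tgfb1 1445360_at (-0.45, adjusted p = 0.485) and Ikzf2 1456956_at (0.30, adjusted p = 0.554). The calls of Il2ra and Tgfb1 in males and not in females are thus not shown to be a difference between the sexes. For Il10 the difference of effects was 0.05, with a 95% interval of -0.35 to 0.44, and for Ctla4 it was -0.10, with an interval of -0.48 to 0.28.

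T cell markers were measured beside these genes, since in whole lung a change in the number of cells of a type and a change in RNA per cell cannot be told apart. The mean of 13 T cell markers was 8.12 to 8.46 in SHS females, against 8.04 to 8.13 in air females. It was 7.87 to 8.03 in SHS males, against 7.80 to 8.02 in air males. In females 1 of the 13 was called higher, the CD8 chain Cd8b1 at 0.40 (limma adjusted p = 0.0304), and in males none was in limma. The other CD8 chain, Cd8a, differed by -0.01 in females and 0.02 in males (adjusted p = 0.977 and 0.942). At an unadjusted p under 0.05, 6 of the 13 were higher and 0 lower in females, and 0 were higher or lower in males. Over all probe sets, 2.36% were called higher in females and 3.07% in males. At the unadjusted threshold, 9.88% were higher and 6.16% lower in females, and 10.3% and 9.86% in males. These shares include dim probe sets, whereas each marker was read on its brightest probe set. The shares are thus not matched to the markers in signal, here and in the marker lists below. The median difference of the list was 0.20 in females, or 0.31 without SHS female replicate 4, and 0.05 in males. Cd8b1 was called in 11 of 16 fits that leave out an array. The T cell receptor chain Cd3e differed by 0.20 in females and 0.09 in males, and Cd4 by 0.15 and 0.11, none called (adjusted p = 0.29, 0.664, 0.423 and 0.547). The brightest probe set of each gene was also expressed relative to the T cell marker mean of the same array. The other probe sets of Icos, Il2ra, Ikzf2 and Tgfb1 were not expressed this way. Il10 was still higher after SHS by 0.51 in females and 0.62 in males and Ctla4 by 0.35 and 0.61, with no overlap between SHS and air. On this measure Ikzf2 1437542_at was lower by 0.23 in each sex, also with no overlap, and Foxp3 differed by -0.08 and -0.05 with overlap. Icos was 0.20 in females with overlap and 0.43 in males without, and Il2ra -0.24 in females with overlap and 0.39 in males without. Lag3 and Tnfrsf18 overlapped in both sexes, at 0.09 and 0.34 for Lag3 and 0.03 and 0.15 for Tnfrsf18, as did Tgfb1, at 0.04 and 0.26. These ratios were chosen after seeing the data and carry no test. The signal of Ikzf2 1437542_at itself differed by -0.02 in females and -0.19 in males. The T cell marker mean was 8.31 in SHS and 8.11 in air females, and 7.95 and 7.9 in males. The share of all probe sets without overlap on this ratio was not counted, so the statements on overlap are descriptions only.

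Markers of dividing cells were higher after SHS in both sexes, as Il10 and Ctla4 were. All 11 measured markers, among them Mki67 and Top2a, rose in both sexes, with medians of 1.13 in females and 0.99 in males. Their mean was 7.91 to 8.66 in SHS females, against 7.16 to 7.42 in air females, and 8.12 to 8.53 in SHS males, against 7.31 to 7.57 in air males. Replicate 4 was the lowest SHS lung of both sexes here as for Il10. Of 10 macrophage markers 2 rose in each sex, the mannose receptor Mrc1 (0.72 and 0.66) and the endotoxin co-receptor Cd14 (0.69 and 0.76). The median of the list was 0.22 in females and 0.09 in males, with 7 of the 10 differences positive in each sex. Siglecf (-0.32 and -0.54) and Mertk (-0.06 and -0.20) were lower in both sexes and not called. Of 10 dendritic cell markers 2 rose in females and 3 in males, with the lectin Clec10a in both (0.39 and 0.62, called in 12 and 16 of 16 fits that leave out an array). The others were Ccl22 in females (0.89, in 10 of these fits), and Ccl17 (1.09, in 14) and Cd209a (0.46, in 9) in males. The list median was 0.19 in females and 0.16 in males. Flt3 (-0.02 and -0.03), Zbtb46 (0.04 and 0.08) and Xcr1 (-0.14 and 0.04) were not called in either sex. Of 9 B cell markers only the IgE receptor Fcer2a was called (1.03 and 0.89; in 10 of these 16 fits in each sex), and of 5 platelet markers only the chemokine Pf4 (0.77 and 0.69). None of 7 NK cell or 8 mast cell and basophil markers was called in either sex in limma, where at an unadjusted p under 0.05 the NK list had 1 higher in females and 1 lower in males and the mast cell list 1 lower in females. Of 5 thymocyte markers 1 fell in males, the lipid-presenting Cd1d1 (-0.30, adjusted p = 0.0331, called in 11 of the 16 fits), and none was called in females. Beside these marker counts, 2.36% of all probe sets were called higher and 0.517% lower in females, and 3.07% and 2.11% in males. At an unadjusted p under 0.05, 9.88% were higher and 6.16% lower in females, and 10.3% and 9.86% in males. The part of these cells in the differences of the 9 genes was not tested.

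**Figure D3:**
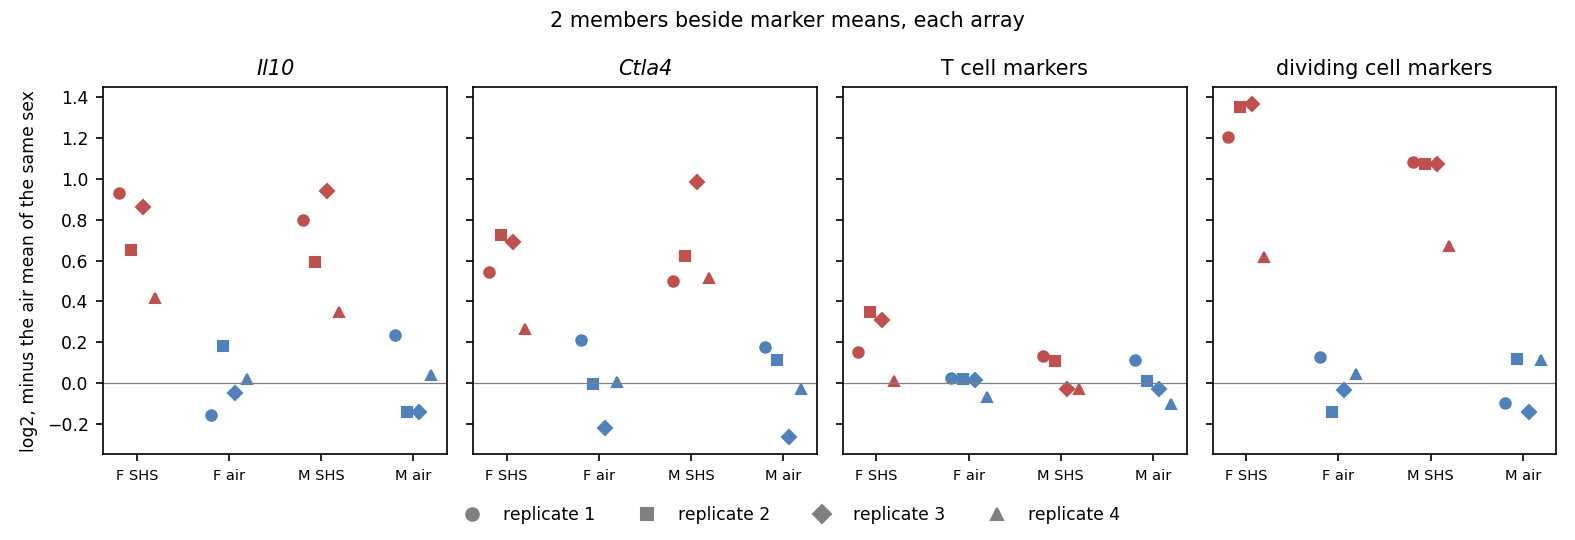
Il10, Ctla4, the mean of 13 T cell markers and the mean of 11 dividing cell markers on each array, as log2 intensity minus the air mean of the same sex; F is female and M male, SHS in red left of air in blue, and symbols are replicate numbers. Il10, Ctla4 and the dividing cell markers are higher in all SHS lungs, with replicate 4 lowest for Il10 and the dividing cells, while the T cell markers overlap in both sexes.

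The genes that carry the signals of Il10 and Il2ra were examined next, from lists of pathway genes. Interleukin 10 and interleukin 2 act through Janus kinases and STAT factors that switch on feedback inhibitors. Of 16 measured genes, 5 rose in females and 5 in males and none was called lower, with list medians of 0.09 (0.15 without SHS female replicate 4) and 0.07. Over all probe sets, 2.36% were called higher and 0.517% lower in females, and 3.07% and 2.11% in males. Cish, Socs3, Jak3 and Bcl3 rose in both sexes. Cish, a feedback inhibitor induced by interleukin 2, was higher by 0.65 and 0.62 (limma adjusted p = 0.00564 and 0.00568). Socs3, a feedback inhibitor downstream of Stat3, rose by 0.46 and 0.76 (adjusted p = 0.0219 and 0.000623). Jak3, the kinase of the interleukin 2 receptor, rose by 0.43 and 0.53, and Bcl3, an NF-kB cofactor, by 0.43 and 0.60. Il2rb, the beta chain that pairs with Il2ra, rose in females by 0.40 (adjusted p = 0.0158) and Stat3 in males by 0.24 (adjusted p = 0.0368). Cish read 10.22, 10.45, 10.37 and 9.86 in SHS females, against 9.57, 9.54, 9.38 and 9.81 in air females, and SHS female replicate 4 was again the nearest to air. The interleukin 10 receptor chains were not called, with Il10ra at -0.02 and 0.09 and Il10rb at 0.10 and -0.13, nor was Il2 itself (-0.33 and -0.07). Many other cytokines induce Socs3, Cish and Bcl3. With each array left out in turn, Cish was called in both sexes in all 16 fits, as were Socs3, Jak3 and Bcl3 in males. In females Socs3 was called in 11 of these fits, Jak3 in 5, Bcl3 in 4 and Il2rb in 12, and Stat3 in males in 8. The highest adjusted p was 0.141 for Jak3 and 0.151 for Bcl3, both without air female replicate 3.

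Among checkpoint and costimulatory receptors and their ligands, the largest difference was in Pdcd1lg2, which encodes PD-L2, a ligand of the checkpoint receptor PD-1. It read 9.07, 9.83, 9.79 and 7.93 in SHS females, against 7.88, 7.64, 7.58 and 7.74 in air females. It read 9.02, 9.01, 8.90 and 8.44 in SHS males, against 7.71, 7.70, 7.53 and 7.82 in air males. The groups did not overlap, with SHS female replicate 4 just above the air females. Pdcd1lg2 rose by 1.44 ± 0.28 in females (SE, limma adjusted p = 0.0087) and 1.15 ± 0.28 in males (adjusted p = 0.024). Of 29 measured genes, 2 rose in each sex and none was called lower, with medians of 0.13 and 0.04. Over all probe sets, 2.36% were called higher in females, 3.07% in males and 6.65% in the average. Called lower were 0.517% in females and 2.11% in males. The second in females was Tnfrsf9, the costimulatory receptor 4-1BB (0.89, adjusted p = 0.0135), and in males its ligand Tnfsf9 (0.57, adjusted p = 0.00563). In the average 7 rose, these 3 with Pdcd1, the PD-1 receptor (0.57, adjusted p = 0.0185), Cd40, Tnfrsf4 and Fgl1, at 0.29, 0.23 and 0.19. Fgl1 encodes a ligand of Lag3, and its call was kept in 4 of 16 fits that leave out an array. Pdcd1lg2 in males lost its call without SHS male replicate 1, 2 or 3 or air male replicate 1 or 3 (highest adjusted p = 0.0713), and Tnfrsf9 in females without SHS female replicate 1 (adjusted p = 0.0544). The ligands of Ctla4 were not called in either sex, with Cd80 at 0.35 and 0.17 and Cd86 at -0.01 and -0.06, and neither was the Icos ligand Icosl, at -0.05 and -0.09.

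The TGF-beta list had calls in both directions. Of 23 measured genes, none rose and 1 fell in females, and 1 rose and 3 fell in males, with medians of -0.02 and -0.00. Over all probe sets, 2.36% were called higher and 0.517% lower in females, and 3.07% and 2.11% in males. Ltbp2, a latent TGF-beta binding protein family member of the matrix, fell by 0.50 in each sex (limma adjusted p = 0.0184 and 0.0138). It read 8.68, 8.77, 9.05 and 8.84 in SHS females, against 9.66, 9.36, 9.19 and 9.14 in air females, and did not overlap in males either. In males the type 1 receptor Tgfbr1 fell by 0.39 (adjusted p = 0.00847), Ltbp3 fell by 0.42 (adjusted p = 0.00284) and the TGF-beta induced matrix gene Tgfbi rose by 0.67 (adjusted p = 0.00265). In the average Thbs1, a thrombospondin that can activate latent TGF-beta, also rose, by 0.56 (adjusted p = 0.00721). The female differences of Tgfbr1, Ltbp3 and Tgfbi were -0.27, -0.23 and 0.42, none of them past the threshold (adjusted p = 0.0854, 0.0928 and 0.0526). At an unadjusted p under 0.05, 3 genes of the list were higher and 5 lower in females, and 3 were higher and 4 lower in males. By that threshold 9.88% of all probe sets were higher and 6.16% lower in females, and 10.3% and 9.86% in males. Ltbp2 lost its call in females without air replicate 2 or SHS replicate 1 or 2 (highest adjusted p = 0.0756) and in males without air replicate 1 or SHS replicate 3 (highest adjusted p = 0.0527). The type 2 receptor Tgfbr2 differed by -0.02 and -0.05.

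Of 33 measured transcription factors and effector molecules of regulatory T cells, 5 rose in females and 3 in males, and none was called lower in either sex, with medians of 0.12 and 0.01. Over all probe sets, 2.36% were called higher in females, 3.07% in males and 6.65% in the average. Called lower were 0.517% in females, 2.11% in males and 3.67% in the average. Socs1, a cytokine feedback inhibitor, rose by 0.61 and 0.68 (limma adjusted p = 0.0156 and 0.00558), and Batf, a factor of effector T cells, by 0.32 and 0.28 (adjusted p = 0.0205 and 0.0352). In females Irf4, a factor that acts with Batf, rose by 0.81 (adjusted p = 0.0272), the chemokine receptor Cxcr3 by 0.36 (adjusted p = 0.0303) and Izumo1r, the folate receptor 4 of mouse regulatory T cells, by 0.38 (adjusted p = 0.0352). In males the nuclear receptor Nr4a3 rose by 0.40 (adjusted p = 0.0247), while Cxcr3 differed by -0.25 (adjusted p = 0.104). None of these effects was called as different between the sexes, Cxcr3 included (0.62, adjusted p = 0.265). In the average 9 rose, with Entpd1 called in 3, Klrg1 in 4, Capg in 6 and Ccr6 in 7 of the 16 fits that leave out an array, and Foxo1, a factor of resting T cells, fell by 0.21 (adjusted p = 0.0395). The Helios relative Ikzf4 differed by 0.19 and 0.07 and was not called. Of the 16 fits that leave out an array, Socs1 was called in 12 in females and 16 in males, Batf in 12 and 9, Irf4, Cxcr3 and Izumo1r in females in 10 each and Nr4a3 in males in 11, and Foxo1 in the average in 5. The list was also read with quantile normalization, median centring, each array left out, and every probe set of a gene counted. Over these 19 alternatives it had 0 to 8 called higher in females, 1 to 4 in males and 5 to 11 in the average. The other alternatives were not run on the lists.

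**Figure D4:**
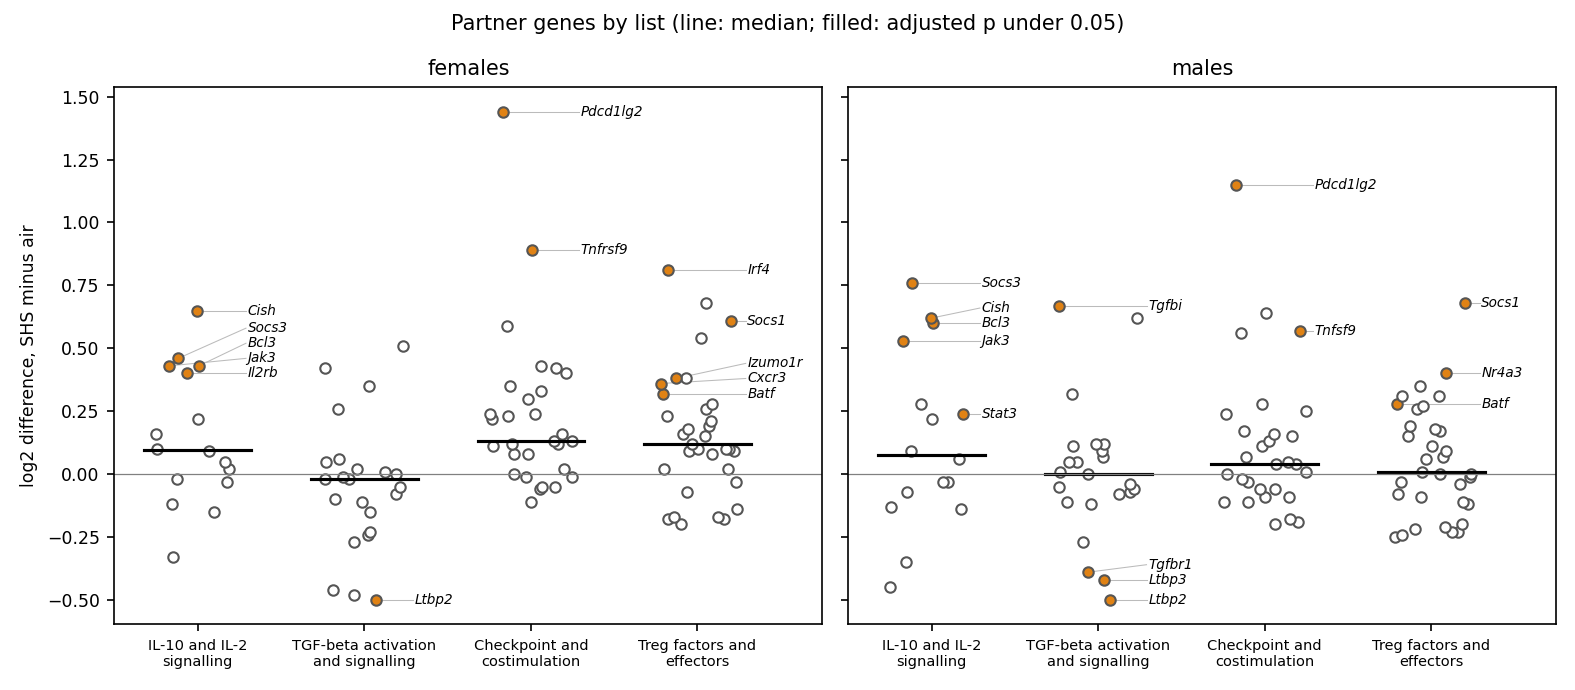
Log2 difference, SHS minus air, of each measured gene of the 4 pathway lists (points) in females (left) and males (right); filled points passed an adjusted p of 0.05 and are named, and lines are list medians. Pdcd1lg2 is the highest point in each sex (1.44 and 1.15), and the points called lower are Ltbp2 in both sexes and Tgfbr1 and Ltbp3 in males.

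Genes with the pattern most like each member were found by Pearson likeness over the 16 arrays after centring each sex on its mean, among 19495 probe sets of other genes above the median signal. This measure includes the difference between SHS and air, so genes that differ between the groups score high together, and it carries no test. The closest to Ctla4 were both probe sets of Cp, the copper-carrying acute-phase protein ceruloplasmin (0.960 and 0.948), and Nfkb2, an NF-kB subunit (0.954). The closest to Il10 were Mtx1, Tmem41b and Cope (0.965, 0.949 and 0.945), and to Icos Tmem26, Ttc39c and Tcaf2 (0.959, 0.946 and 0.944). Lag3 was closest to Fig4 (0.951), Tnfrsf18 to Bcap29 (0.952), Tgfb1 to Trib1 (0.887) and Ikzf2 to Pla2g2d (0.886). Il2ra and Foxp3 had lower best scores, 0.863 with Sbno2 and 0.814 with Amhr2. Among the members Il10 and Ctla4 scored 0.88 with each other, whereas Foxp3 scored 0.27 with Il10, 0.26 with Ctla4 and -0.42 with Ikzf2.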

How the data were processed

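Total RNA of 16 left lungs (Trizol, per the labels' protocols) was hybridized to 1 array each. The authors deposited log2 intensity values, 1 per probe set and array. Summarisation and normalization are not given in the sources used here. Limma is a tool that the submitters' processing notes list, with no version. The log base was settled from the range of the values, 2.575 to 15.22. Array medians were 6.996 to 7.041.

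The table had 45101 features, of which 64 controls were not tested. Exactly 1 symbol was given for 34945 probe sets, several for 932 and none for 9160. Means of the 4 groups were fitted on the values as deposited with limma 3.58.1 in R 4.3.3 (12 residual and 5.556 prior degrees of freedom), two-sided, with Benjamini-Hochberg adjustment over 45037 probe sets and calls at 0.05. The fit was tested on simulated data. The members, the 4 pathway and 9 marker lists (195 entries, 179 with a probe set) and the tests were chosen with earlier results of these data known. A listed gene is represented by its brightest probe set, while the shares over all probe sets include dim ones. All members are named. Of the other lists, called genes are named in part, with some uncalled genes beside them. The counts of a list cover all its measured genes. The 3 genes with the most similar pattern were sought for each member. The arrays' number limits the precision. Python 3.11.15, pandas 2.3.3 and matplotlib 3.10.9 were used.

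Alternatives were quantile normalization, median centring, a filter at the 40th percentile of mean signal, array weights, a trended robust prior, the groups compared alone, the replicate number as a block and leaving out each array. Leaving out both SHS arrays numbered 4 and the ratio to T cell markers were added after seeing the data.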

Additional observations from a re-analysis of the deposited data

Results flagged for a closer look

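Within groups of 4, 3 values stood far from the other 3 by Dixon's criterion, out of 60 groups examined, and chance gives about 1 in 20. Tnfrsf18 read 7.82 in SHS male replicate 4, below the 8.15 to 8.20 of the other SHS males and near the air males. Il2ra (1420692_at) read 5.67 in air female replicate 1, below the 5.85 to 5.88 of the other air females. Foxp3 read 5.31 in SHS female replicate 3, below the 5.60 to 5.62 of the other SHS females and below all 4 air females. Without that last lung the Foxp3 difference in females was 0.20 and not called in limma.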

How the results depend on the processing

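Il10 was called in both sexes and in the average under every alternative that tested it, and Ctla4 likewise in males and in the average. The filter at the 40th percentile of mean signal removed 6 of the 15 probe sets, Il10 among them. Of the other 9, 1 was called in females, 3 in males and 4 in the average. Among these, Icos 1436598_at in males (adjusted p = 0.039) and Tgfb1 1420653_at in the average (adjusted p = 0.0455) were gained. Of all probe sets that passed the filter, 1802, 2808 and 5195 were called, against 1294, 2332 and 4652 in the main fit. In females the 2 calls were 1 with the replicate number as a block and 1 with the groups compared alone, Ctla4 being lost in both (adjusted p = 0.0736 and 0.052). Over all probe sets, 1023 and 448 were called in females in these 2 settings. Leaving out 1 array gave 1 to 5 calls in females, with 5 without SHS female replicate 4 and 1 without any other SHS female or air female replicate 2, 3 or 4. In males it gave 2 to 7, with 2 without SHS male replicate 1 and 3 without SHS male replicate 2 or 3 or air male replicate 1 or 3. In the average it gave 6 to 10, the 10 without SHS female replicate 4. Over all probe sets, 3604 were called in females and 6983 in the average without SHS female replicate 4. Fits with 1 member call in females called 657 to 797 of all probe sets there. Fits with 2 or 3 member calls in males called 1073 to 1370, and those with 7 called 2745 and 3153. Without both SHS arrays numbered 4, chosen after seeing the data, 6 member probe sets were called in females, 6 in males and 9 in the average. Of all probe sets, 3954, 3315 and 7520 were called in that setting. Array weights gave 3, 7 and 11 member calls, beside 3985, 4398 and 7717 over all probe sets. No alternative called a difference between the sexes. Quantile normalization lowered the share of higher calls among all calls from 82.0% to 70.6% in females, with the same member calls. No called difference changed direction; 51 sign changes occurred among uncalled differences of 16 member comparisons, all within 0.10 of 0. The replicate block gave 5 calls in males, with Tgfb1 1445360_at lost (adjusted p = 0.0631) and Icos 1436598_at gained, 8 in the average, with Tnfrsf18 and Tgfb1 1420653_at gained, and 0 between the sexes. Over all probe sets it called 1716 in males and 4171 in the average. Deviations of same-numbered SHS and air arrays correlated at -0.0796 to 0.2666 in females and at 0.0205 to 0.1152 in males, weak but all positive in males. Some arrays correlated best with their own number and others did not. These values do not settle whether the number marks a shared origin. The labels do not say what it marks, so it was treated as a name. Same-numbered arrays of different sexes were not compared. Except where a filter or fewer arrays tested fewer values, the cause of these changes was not tested.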
